A study of Bos taurus with 26 samples.

Results

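The gene IDs described here are 150 of the 24616 IDs counted in corpus luteum and endometrium of Holstein cows, chosen because their counts were high in 4 corpus luteum libraries of the high-fertility line and low in all other corpus luteum libraries. The 4 raised libraries are Fert+ replicates 15, 16, 18 and 19. The other 8 are Fert+ replicates 21, 23 and 24 and the Fert- replicates 17, 20, 25, 27 and 28. This split was found in the data, and the labels name no treatment, tissue, line or day that separates the 4 libraries from the other Fert+ libraries. Their replicate numbers are the lower ones, 15 to 19 against 21 to 24, and no other Fert+ luteal library shares a combination of batch and parity with them. Levels are given as CPM, each count divided by the library's total and multiplied by 1000000, and the members were selected on these values. Log2 levels are log2(CPM + 1). An ID had to average at least 2 CPM over the 12 corpus luteum libraries and less than 20 times its endometrial mean, which left 12121 IDs. Its lowest raised library had to exceed the highest of the other 8 by a gap of 1 or more on the log2 scale, which left 424 (3.5%). The mean of Fert+ replicates 21, 23 and 24 could not exceed the highest Fert- library, which left 347, and the 150 with the largest gap were taken.

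All libraries came from day 13 of the oestrous cycle, from cows of a high-fertility (Fert+) or a low-fertility (Fert-) line. Endometrium from the uterine horn on the side of the corpus luteum gave 8 Fert+ and 6 Fert- libraries, and corpus luteum biopsies gave 7 Fert+ and 5 Fert- libraries. The raised libraries were replicates 15 and 18 of batch 4 and parity 3, replicate 16 of batch 3 and parity 3, and replicate 19 of batch 2 and parity 4. Fert+ replicates 21 and 24 were of batch 1 and parity 2, and replicate 23 of batch 3 and parity 4. The Fert- libraries were replicates 20 and 28 of batch 1 and parity 4, replicate 17 of batch 2 and parity 4, and replicates 25 and 27 of batch 3 and parity 3. In endometrium, parities of 2, 3 and 4 and all 4 batches occurred. The labels do not say what the batch number stands for, nor whether the libraries are from different cows, so a p-value refers only to the spread among these samples. No further treatment is given for any group.

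The corpus luteum is a temporary gland that forms in the ovary from the ruptured follicle and secretes progesterone, the hormone that prepares the uterus for an embryo. It holds steroid-producing luteal cells, a dense network of capillaries, fibroblasts and immune cells, and in the middle of the cycle it is fully functional. The endometrium is the lining of the uterus, which responds to that progesterone and, in a cycle without pregnancy, releases the prostaglandin that ends the life of the corpus luteum. The files give gene IDs without symbols, and 0 of them matched the gene table used here. The functions of the 150 IDs are therefore not given, and the labelled tissues could not be checked against known marker genes.

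Total counts ran from 12702533 to 18008417 in the raised libraries, from 11924906 to 17798119 in the other 8, and from 9627378 to 16580572 in endometrium, so depths overlapped. The number of IDs with a count did not overlap within corpus luteum: it was 17014 to 17325 in the raised libraries and 15935 to 16609 in the other 8, and it was 16748 to 17218 in endometrium. The part of this difference in the levels of the 150 IDs was not tested. Raised replicate 19 had 17014 IDs with a count from a total of 12702533, and Fert- replicate 25 had 16533 from 17798119. Among the 12121 IDs that met the level limits, 25.4% were higher in every raised library than in all the other 8, and 2.81% were lower in every raised library. With library sizes scaled by the trimmed mean of M values (TMM), these shares were 17% and 11.8%. The scaling moved the median difference of these IDs between the raised and the other 8 libraries from 0.18 to -0.03 on the log2 scale. It moved that of the 150 IDs from 2.44 to 2.27, so that they lay above the median by 2.26 or, with TMM, by 2.3.

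The corpus luteum values chose the members or come from the libraries that did, so they are a description, and nothing is read from a test of them. The 150 IDs together took 0.710%, 0.739%, 0.706% and 0.718% of the counts in replicates 15, 16, 18 and 19. In Fert+ replicates 21, 23 and 24 they took 0.134%, 0.124% and 0.127%. In Fert- replicates 17, 20, 25, 27 and 28 they took 0.115%, 0.134%, 0.111%, 0.117% and 0.121%. Fert+ replicates 21, 23 and 24 lay beside the Fert- libraries, and no corpus luteum library lay between the 2 levels. The rule put each raised library above the other 8 for every member. It also kept the mean of Fert+ replicates 21, 23 and 24 from exceeding the highest Fert- library, so nothing is read from this pattern. In bulk tissue, fewer cells of a type and less RNA per cell cannot be told apart, so a share of this kind does not separate them. In endometrium the 150 IDs took 0.188% to 0.275% of the counts (median 0.250%, n = 14), above all of the other 8 corpus luteum libraries and below all of the raised ones.

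**Figure D1:**
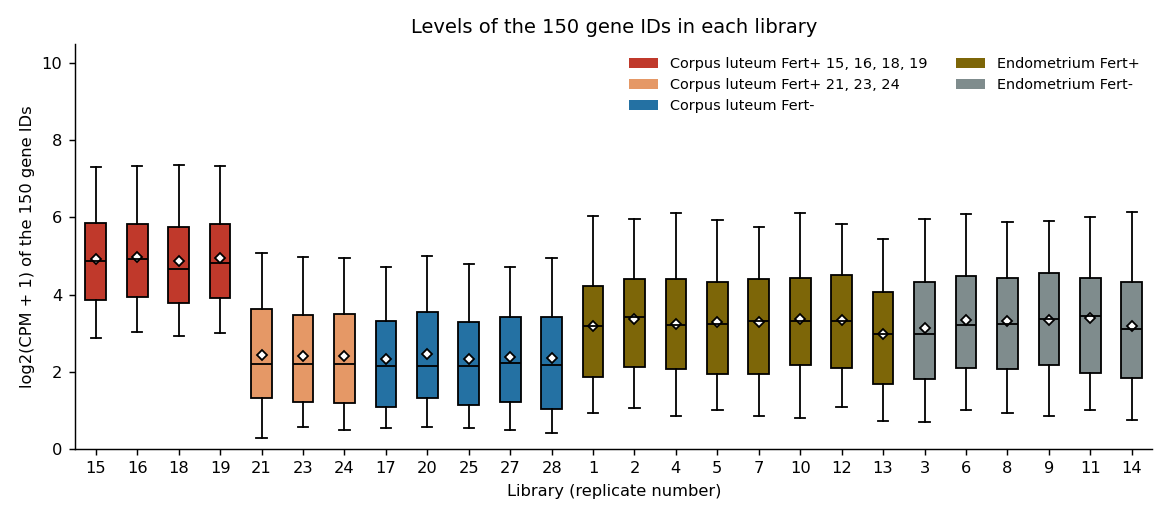
The boxes show the log2(CPM + 1) of the 150 gene IDs in each of the 26 libraries (box, quartiles with the median as a line; whiskers, percentiles 5 and 95; diamond, mean), by replicate number on the x axis and colour for group. The means of Fert+ corpus luteum replicates 15, 16, 18 and 19 sit between 4.87 and 4.98, those of the other corpus luteum libraries between 2.33 and 2.47, and those of endometrium between 2.98 and 3.39.

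The mean log2 level of the 150 IDs was 4.92, 4.98, 4.87 and 4.94 in replicates 15, 16, 18 and 19. It was 2.42 ± 0.019 (SD, n = 3) in Fert+ replicates 21, 23 and 24 and 2.37 ± 0.058 (SD, n = 5) in the Fert- libraries. The mean of Fert+ replicates 21, 23 and 24 exceeded that of Fert- by 0.05, and over all 12121 IDs this difference was 0.07. For 149 of the 150 IDs the means of these 2 sets lay within 0.5 of each other on the log2 scale. The rule did not let the mean of Fert+ replicates 21, 23 and 24 exceed the highest Fert- library. Nothing is therefore read from this closeness.

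Batches 2 and 3 held both raised and other libraries, and batches 1 and 4 did not. Batch 2 held raised Fert+ replicate 19 and Fert- replicate 17, whose mean log2 levels of the 150 IDs differed by 2.61. In batch 3, raised replicate 16 stood 2.56 above Fert+ replicate 23, while the Fert- replicates 25 and 27 of that batch were at 2.33 and 2.39. Over all IDs that met the level limits, replicate 19 exceeded replicate 17 by 0.34, and replicate 16 exceeded replicate 23 by 0.24. Batch 1 held no raised library, and there the Fert+ mean exceeded the Fert- mean by 0.02 (n = 2 and 2). Batch 4 held raised libraries alone, so in that batch no other corpus luteum library can be set beside them. At parity 2 there were only Fert+ replicates 21 and 24, which were not raised. At parity 3, all Fert+ libraries (replicates 15, 16 and 18) were raised and both Fert- libraries (replicates 25 and 27) were not, so no other Fert+ library of that parity can be set beside them. At parity 4, replicate 19 was raised, while Fert+ replicate 23 and Fert- replicates 17, 20 and 28 were not. For every member the rule itself put each raised library above every other corpus luteum library, within batches and parities too. Nothing about batch or parity is therefore read from the members' levels here.

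The gap of the members ran from 1.49 to 4.46 with a median of 1.93 on the log2 scale. The last member taken had a gap of 1.4946, and the first ID left out had a gap of 1.4928. The ratio of the mean CPM in the raised libraries to that in the other 8 had a median of 7.04 and quartiles of 5.16 and 10.6. It was at least 4 for 145 members, at least 10 for 43 and at least 20 for 11. Between different IDs, a higher CPM does not mean more transcripts, because CPM does not correct for gene length. By CPM, 28 members averaged below 1 CPM in the other 8 libraries, 84 between 1 and 10, and 38 between 10 and 100. Their median ratios were 15.4, 7.22 and 4.99 in that order, and the lowest were 7.11, 4.16 and 3.70. The gap was taken on log2(CPM + 1), so the rule itself asked for a larger ratio at low CPM. Nothing is read from this order. A member with 53 to 141 counts in the raised libraries had 5 counts in the other 8 together, and 4 of those 8 were at 0; no ratio is given for it. In all 26 libraries, 148 members had a count.

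ENSBTAG00000002321 had the largest gap, at 4.46. It was at 48.3, 52.4, 50.9 and 53.3 CPM in replicates 15, 16, 18 and 19. In Fert+ replicates 21, 23 and 24 it was at 0.957, 0.702 and 0.947 CPM, and in Fert- replicates 17, 20, 25, 27 and 28 at 1.05, 0.657, 1.24, 1.02 and 0.503 CPM. The raised libraries held 677 to 944 of its counts each and the other 8 held 6 to 22, a ratio of means of 58.0. In endometrium it ranged from 4.20 to 7.65 CPM in Fert+ (median 5.41, n = 8) and from 3.08 to 6.50 in Fert- (median 5.02, n = 6). All endometrium libraries thus lay between the 2 luteal levels, and the lines overlapped there.

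ENSBTAG00000001796 had the second gap, at 3.38. It was at 29.9, 31.3, 29.9 and 24.9 CPM in the raised libraries, of which replicate 19 was lowest. It was at 0.884, 0.390 and 0.711 CPM in Fert+ replicates 21, 23 and 24. In Fert- replicates 17, 20, 25, 27 and 28 it was at 0.897, 1.49, 0.730, 0.860 and 0.671 CPM, a ratio of means of 34.9. In endometrium it ranged from 1.55 to 3.84 CPM in Fert+ (median 2.26, n = 8) and from 1.51 to 3.55 in Fert- (median 2.48, n = 6). The lowest endometrium library, Fert- replicate 14, was just above Fert- replicate 20 of corpus luteum, with 25 counts in each. The TMM factors of these libraries were 1.10 and 0.890, and with TMM sizes their order reverses. The lines overlapped in endometrium.

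**Figure D2:**
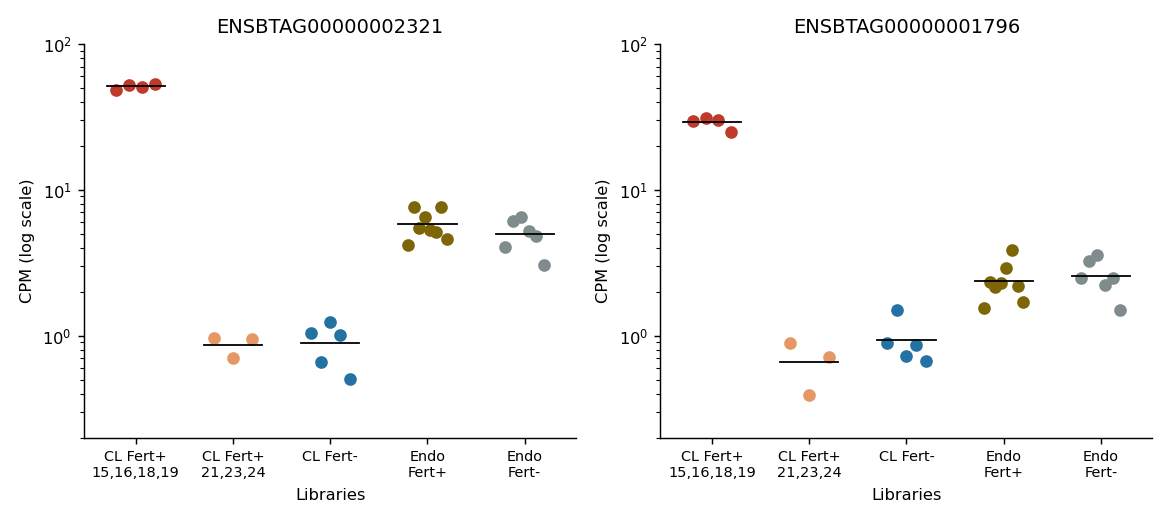
Each point is a library's CPM (log scale) of the gene ID named above the panel, by group on the x axis, with a line at the group's mean (CL, corpus luteum; Endo, endometrium). For ENSBTAG00000002321 the 4 raised libraries sit at 48.3 to 53.3 CPM and for ENSBTAG00000001796 at 24.9 to 31.3 CPM, and endometrium lies between them and the other corpus luteum libraries.

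Within the raised libraries the members' SD over the 4 libraries had a median of 0.14 on the log2 scale (quartiles 0.09 and 0.19), equal at this precision to the 0.14 of all 12121 IDs, although the rule favours members with a high lowest library. The coefficient of variation of their CPM had a median of 9.74%, where counting error alone gives a median of 4.70%. Replicate 16 was the highest of the 4 for 61 members and replicate 18 the lowest for 59. Over all 12121 IDs the mean log2 level was also lowest in replicate 18, at 4.72, and highest in replicate 15, at 4.80. With TMM sizes the members' mean was lowest in replicate 15, at 4.91, and highest in replicate 16, at 4.98. Nothing about the members is read from these counts. Over the 5 Fert- corpus luteum libraries the median SD was 0.23 for the members and 0.26 for all IDs. In endometrium the members' median SD was 0.28 over 14 libraries, beside 0.25 for all IDs.

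Endometrium held most members at a level between the 2 luteal levels. The endometrial mean lay between the mean of the raised and the mean of the other 8 libraries for 134 of the 150, beside 17.6% of the 12121 IDs. It was below both for 15 members and above both for 1. For 135 members every raised library was above every endometrium library, beside 20.5% of all IDs, and for 77 the other 8 libraries were all below every endometrium library, beside 26.8%. Both held for 63 members, beside 1.64% of all IDs. The members were picked for high raised libraries and low other ones, so nothing is read from these shares. The lower side moved with the scaling: with TMM sizes the counts were 139, 41 and 35, beside 25.9%, 13.4% and 0.957% of all IDs.

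On the log2 scale the raised libraries exceeded endometrium by a median of 1.69 over the members (1.83 with TMM), while the median of all IDs was -0.10 (0.06 with TMM). The other 8 libraries were below endometrium by a median difference of -0.91 (-0.58 with TMM), while the median of all IDs was -0.40 (-0.02 with TMM). Relative to all IDs, the members' difference between the other 8 libraries and endometrium was -0.51 or, with TMM, -0.56. The endometrial mean was nearer to the other 8 libraries than to the raised ones for 104 members, beside 47.0% of all IDs. Since the rule picked high raised and low other libraries, nothing is read from these values. Mean levels in endometrium had a Spearman's rho of 0.861 with those in the raised libraries and 0.913 with those in the other 8, across the 150 members. These points share the length of each gene and are not independent replicates. A member with 42.4 CPM in endometrium on average was the exception at the top, since its means were 21.9 CPM in the raised and 4.06 CPM in the other 8 libraries.

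**Figure D3:**
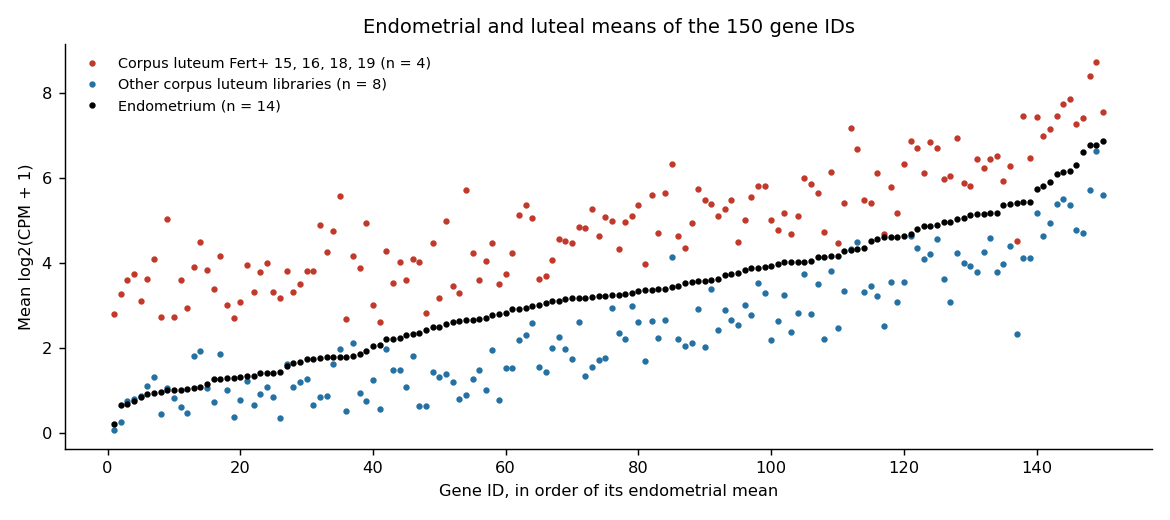
Each of the 150 gene IDs, in order of its endometrial mean on the x axis, has 3 points for its mean log2(CPM + 1) in the 4 raised corpus luteum libraries, the other 8 corpus luteum libraries and the 14 endometrium libraries. The endometrial mean lies between the other 2 for 134 IDs.

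IDs restricted to the other tissue were checked beside the members, in sets chosen after earlier results were known and without use of the raised libraries. The 324 endometrium-restricted IDs averaged at least 10 CPM in endometrium and at least 20 times the mean of the other 8 corpus luteum libraries, and the 113 luteal-restricted IDs met the reverse. This choice favours low values of the other 8 libraries in the first set and high values of them in the second. The endometrium-restricted set held 0 members, and the rule itself kept members out of the luteal-restricted set. Endometrium-restricted IDs took 0.0523% to 0.261% of the counts in the raised libraries and 0.0412% to 0.184% in the other 8, which overlapped. In endometrium they took 2.49% to 13.4%, where Fert+ replicate 1 was highest and the next library was at 6.20%. The highest raised library was replicate 16 at 0.261%, and the other raised libraries, replicates 15, 18 and 19, were at 0.0700%, 0.0523% and 0.0779%, within the range of the other 8. The luteal-restricted IDs took 6.81% to 7.64% in the raised libraries and 3.74% to 7.81% in the other 8, which overlapped as well.

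**Figure D4:**
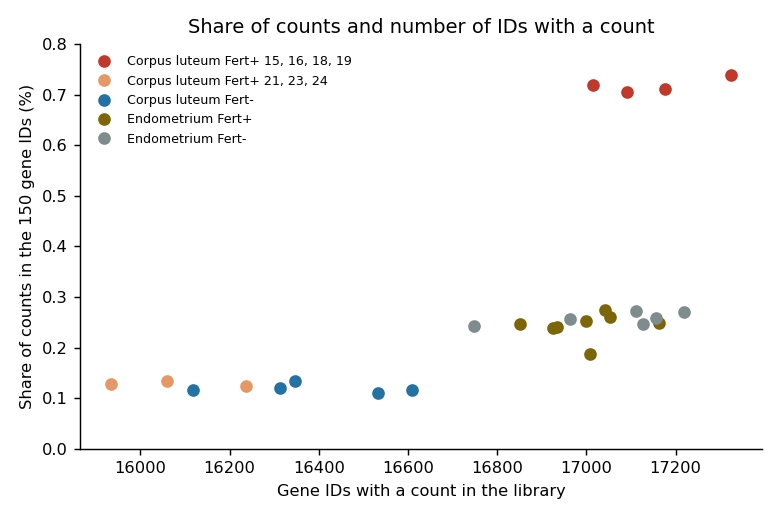
Each point is a library, with the number of gene IDs that had a count on the x axis and the percent of its counts in the 150 gene IDs on the y axis, coloured by group. The raised libraries sit at 0.706% to 0.739% with 17014 to 17325 IDs, the other corpus luteum libraries at 0.111% to 0.134% with 15935 to 16609, and endometrium at 0.188% to 0.275% with 16748 to 17218.

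The corpus luteum comparison of the lines contains the contrast that chose the members, so its values for them are given and nothing is read from them. With batch in the model, edgeR's quasi-likelihood test with Benjamini-Hochberg adjustment called 0 of 13462 IDs (0%) and 0 of the 145 members that passed the filter on low counts (lowest adjusted p 0.212 among members). All 145 had a log2 fold change above 0, with a median of 1.29 and a median standard error (SE) of 0.55, and 107 lay at an unadjusted p under 0.05, beside 21.1% of all IDs. In the higher direction the share of all IDs was 12.1%. limma-voom called 0 members (0% of all IDs), with 19 at an unadjusted p under 0.05, beside 13.2% of all IDs, and DESeq2 called 3, beside 1.45% of all IDs. Without batch, edgeR called 81 of the 145, all higher, beside 8.85% of all IDs and 4.64% in that direction. Fert+ replicates 15 and 18 were alone in batch 4 of corpus luteum. With batch in the model they therefore held no contrast between the lines, and without batch they did. The edgeR median log2 fold change of the members was 1.27 and 1.28 with Fert+ replicates 15 and 18 left out in turn. It was 0.59 and 0.94 with Fert+ replicates 16 and 19 left out in turn. In limma-voom, run with a quality weight for each library, the median was 0.73. The counts moved with single libraries too. With Fert+ replicate 23 left out, edgeR called 27 members of 144, beside 6.77% of all IDs. Members at an unadjusted p under 0.05 numbered 8 with Fert+ replicate 16 left out (11.5% of all IDs) and 7 with Fert+ replicate 19 left out (8.29%). They numbered 11, 27 and 32 when Fert- replicates 17, 25 and 27 were left out in turn (8.07%, 15.8% and 17.6% of all IDs).

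In endometrium, which the rule used only to bound the ratio of the tissues, no member passed the threshold between the lines. edgeR's quasi-likelihood test with batch in the model called 0 of 14243 IDs (0%) and 0 of the 145 members that passed the filter on low counts, whose lowest adjusted p was 0.981. The other 5 members were below the filter, and without it all 150 were tested and 0 were called. At an unadjusted p under 0.05 there were 4 members, 1 higher and 3 lower in Fert+, which is 2.76% of them, beside 3% of all IDs (1.65% higher and 1.36% lower). DESeq2 called 0 members, beside 0.0562% of all IDs, and put 6 at an unadjusted p under 0.05, beside 3.97%. limma-voom called 0 members (0% of all IDs) and put 7 at that level, beside 4.51%. The log2 fold change of the members had a median of 0.01 (quartiles -0.12 and 0.13, median SE 0.18), beside a median of 0.00 over all IDs, and 81 of the 145 were above 0. The members' values thus spread around no difference, as did those of all IDs. With Fert+ replicate 10 left out, edgeR put 9 members below that level, beside 6.26% of all IDs, and with Fert- replicate 6 left out it put 7, beside 2.97%.

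**Figure D5:**
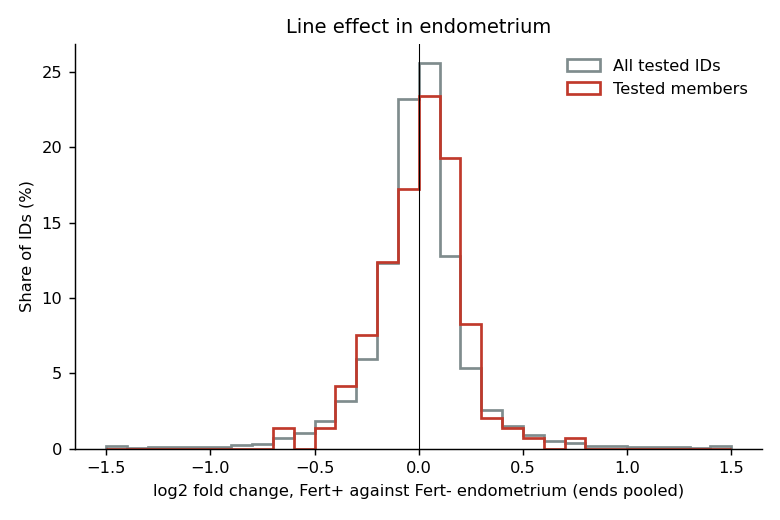
The outlines give the share of IDs (y axis) by edgeR's log2 fold change between Fert+ and Fert- endometrium (x axis, values beyond the ends pooled in the last bins), for all 14243 tested IDs and for the 145 tested members. Both centre near 0, with medians of 0.00 for all IDs and 0.01 for the members.

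Values of the members with the smallest p in endometrium are given although none passed. ENSBTAG00000003169 ranged from 0.996 to 1.97 CPM in Fert+ (median 1.45, n = 8) and from 0.312 to 1.20 in Fert- (median 1.03, n = 6), with overlap. Its log2 fold change was 0.70 (SE 0.21, edgeR adjusted p = 0.981), and in corpus luteum the raised libraries were at 12.4 to 14.2 CPM and the other 8 at 0.671 to 1.64. By library totals, the other 8 corpus luteum libraries thus lay within the range of endometrium for this ID. The low end of that range was Fert- endometrium replicate 3 alone, with 3 counts, and the next endometrium library was at 0.936 CPM. Without that replicate the log2 fold change between the lines was 0.60. ENSBTAG00000032704 ranged from 7.28 to 8.91 CPM in Fert+ (median 7.99, n = 8) and from 5.40 to 8.22 in Fert- (median 7.29, n = 6), a log2 fold change of 0.23 (SE 0.11, edgeR adjusted p = 0.981). Its raised libraries were at 14.1 to 17.8 CPM and the other 8 at 2.11 to 4.27, on either side of endometrium.

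In the other direction, ENSBTAG00000009362 ranged from 71.7 to 135 CPM in Fert+ endometrium (median 88.2, n = 8) and from 104 to 324 in Fert- (median 128, n = 6). Its log2 fold change of -0.61 (SE 0.22, edgeR adjusted p = 0.981) was -0.33 without Fert- replicate 14, the library at 324 CPM. This is the last of the 150 by gap, and in corpus luteum it was at 172 to 202 CPM in the raised libraries and 31.0 to 60.2 in the other 8. ENSBTAG00000011456 ranged from 5.56 to 10.6 CPM in Fert+ (median 7.99, n = 8) and from 7.48 to 16.3 in Fert- (median 9.26, n = 6), a log2 fold change of -0.33 (SE 0.12, edgeR adjusted p = 0.981). Fert- replicate 14 was again the highest, and without it the log2 fold change of ENSBTAG00000011456 was -0.24. The lines overlapped in both IDs. No member separated all 8 Fert+ from all 6 Fert- endometrium libraries in either direction (0 and 0), beside 0.00825% of all IDs in each.

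Some endometrium libraries carry the same line, batch and parity as the raised corpus luteum libraries, although the labels do not tie the tissues of a cow together. Fert+ endometrium replicates 1 and 4 share batch 4 and parity 3 with luteal replicates 15 and 18, and their mean log2 levels of the 150 IDs were 3.18 and 3.23. Replicate 2 shares batch 3 and parity 3 with luteal replicate 16 and was at 3.36, and replicate 5 shares batch 2 and parity 4 with luteal replicate 19 and was at 3.29. The remaining Fert+ endometrium replicates 7, 10, 12 and 13 were at 3.28, 3.36, 3.34 and 2.98. Fert- endometrium ranged from 3.14 to 3.39 (median 3.32, n = 6). The 4 libraries that share labels with the raised ones thus lay within the range of the other endometrium libraries.

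Batch and parity were tested in endometrium in the same way. The batch coefficients together called 8 of 14243 IDs (0.0562%) in edgeR and 0 of the 145 members (lowest adjusted p 0.169). At an unadjusted p under 0.05 there were 9 members, beside 13.2% of all IDs, and 13 when Fert+ replicate 13 was left out, beside 14.8%. Parity, as a number in a model with line and batch, gave 0 calls among 14243 IDs (0%) in edgeR and 0 among the 145 members (lowest adjusted p 0.518). There were 14 members at an unadjusted p under 0.05, 12 of them with a coefficient above 0, beside 9.12% of all IDs (4.98% above 0). When Fert+ replicate 13 was left out there were 5, of which 1 was above 0, beside 6.38% of all IDs (2.4% above 0), and the members' median log2 change per parity moved from 0.05 to -0.01. Leaving out Fert+ replicate 10 gave 7, beside 5.21% of all IDs, and leaving out Fert+ replicate 7 gave 23, beside 11.8%.

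Across the 14 endometrium libraries, the median correlation between pairs of members was low. Pearson's r of the log2 levels had a median of 0.15 over the pairs of the 145 members, beside 0.05 over the pairs of 11985 IDs that met the level limits and were tested in endometrium. It was 0.10 without Fert+ replicate 13, beside 0.06. With TMM sizes it was 0.10 for the members and -0.01 for all. These values share libraries and depth and are a description.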

How the data were processed

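RNA sequencing of polyadenylated RNA covered 14 endometrium and 12 corpus luteum libraries. Per the submitters' processing notes, reads passed through featureCounts, STAR 2.3.0, Trim Galore, CASAVA 1.9 and FastQC 0.10.0 with the build UMD3.1. The strand setting, the annotation release and the treatment of multi-mapping were not given in the sources used here. Genes that overlap, run antisense to another gene or have a close copy are therefore uncertain. The authors deposited whole-number read counts per gene ID, not normalized, and these counts were used unchanged. The members and lists were chosen with earlier results of these data known. Of the 24616 IDs, 0 matched the gene table (assembly ARS-UCD2.0), so the 18 gene lists and the marker lists could not be tested.

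CPM used library totals, with a pseudocount of 1. Each tissue was fitted over all IDs with edgeR 4.0.16 in R 4.3.3: filterByExpr by line, TMM, batch as a factor, robust quasi-likelihood F test in both directions, Benjamini-Hochberg adjusted p under 0.05. Positive log2 fold changes are higher in Fert+. The edgeR line fit in endometrium was tested on counts simulated without a batch effect, and the other fits were not tested in this way. Alternatives were RLE and upper-quartile scaling, other filters, no batch, added parity, DESeq2 1.42.0, limma 3.58.1, other settings of the rule and libraries left out. The limma-voom fits gave each library a quality weight. IDs were named by a rule: the 2 members of largest gap, and at most 2 members per direction of smallest p in endometrium. A member singled out beyond these is given by its values alone.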

Additional observations from a re-analysis of the deposited data

Results flagged for a closer look

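In 4 of 32 sets of values from a group, the highest or lowest library stood far from the others relative to the spread of the group. Chance alone gives this in about 1 of 20 sets. The 150 IDs took 0.188% of the counts in Fert+ endometrium replicate 13, and the next Fert+ library was at 0.239%. ENSBTAG00000001796 was at 1.49 CPM in Fert- corpus luteum replicate 20, and the next was at 0.897 CPM. ENSBTAG00000003169 was at 0.312 CPM in Fert- endometrium replicate 3, a library with 3 counts of it, and the next was at 0.936 CPM. ENSBTAG00000009362 was at 324 CPM in Fert- endometrium replicate 14, and the next was at 135 CPM.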

How the results depend on the processing

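The number of IDs passing the rule, 347, was 855 with a gap of 0.5 or more, 148 with a gap of 1.5 or more, and 275 to 376 under the other settings, libraries left out included. Of the 150 taken, at least 119 were taken again under each setting. In endometrium the line test called 8 IDs with DESeq2 (0 members) and 0 to 1 with each library left out in turn, and 0 under the other settings. The batch test called 13 IDs with no filter on low counts and 16 without Fert+ replicate 13, against 8, and the parity test called 0 throughout. In corpus luteum the line test called 4 IDs with no filter on low counts, 1191 without batch, 195 with DESeq2, and 0 to 908 with each library left out in turn, the highest without Fert+ replicate 23. Without Fert- replicates 20 or 27 it called 1. The causes were not tested. Leaving out single endometrium libraries, the fits without Fert+ replicate 13 or without the 4 raised libraries, limma-voom in corpus luteum and TMM for the order of levels were chosen after seeing the data. No paired analysis was possible because the labels do not tie libraries to cows. Depth limits members that averaged below 1 CPM in the other 8 corpus luteum libraries.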

Other observations

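The IDs just beyond the 150 had the same order of levels. The 197 that passed every criterion at a smaller gap averaged 5.01 to 5.16 log2(CPM + 1) in the raised libraries, 3.42 to 3.48 in Fert+ replicates 21, 23 and 24, 3.29 to 3.49 in the Fert- libraries and 4.01 to 4.30 in endometrium. Their median difference between the raised and the other 8 libraries was 1.67. A further 77 met the gap, but Fert+ replicates 21, 23 and 24 averaged above every Fert- library. These averaged 5.31 to 5.45 in the raised libraries, 3.45 to 3.60 in Fert+ replicates 21, 23 and 24, 3.15 to 3.38 in Fert- and 4.01 to 4.39 in endometrium. For them Fert+ replicates 21, 23 and 24 exceeded the Fert- libraries by a median of 0.26. Both sets were chosen on these values, which are a description.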
